A study of Mus musculus with 4 samples.

Results

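A set of 10 genes on the route from the growth hormone receptor to the transcription factor STAT5 was followed in single liver nuclei of fed and fasted mice. Its members were chosen by symbol, as Ghr, Cish, Socs2, Igf1, Igfals, Stat5a, Stat5b, Bcl6, Cux2 and Onecut1, and all 10 of them were found among the 32285 genes counted. Nuclei were isolated from frozen liver, 50 mg of it, pooled over 8 mice in each group, and counted by 10x sequencing. Of the 4 libraries, fasted 1 and fasted 2 came from mice without food for 16 to 24 h, and fed 1 and fed 2 came from fed mice. No allele, transgene or drug is named for either group, and strain, sex, age and time of day are not given in the sources used here. It is not stated whether replicate preparations shared their mice, so p-values measure the spread between preparations, which may be technical. Fasting and feeding were compared in hepatocytes, along the liver lobule and in other cell types.

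Growth hormone binds its receptor, the product of Ghr, and the kinase JAK2 bound to the receptor then phosphorylates STAT5A and STAT5B. Phosphorylated STAT5 enters the nucleus as a dimer and switches on Igf1 and Igfals, whose products carry the hormone's growth signal in blood, and Cish and Socs2, whose products damp the receptor's signal. In the liver the pathway also sets the difference between male and female gene expression, through repressors such as BCL6 and CUX2 and the activator HNF6, which Onecut1 encodes. Fasting is known to make the liver less responsive to growth hormone.

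STAT5 dimers bind the letters TTCNNNGAA, which read the same on both strands, so the promoters that hold them are shown first. RefSeq promoter entries (GRCm38.p6, 250 bases before to 50 after a start site) matched 9 of the 10 genes, all but Socs2. Among the 32851 promoters counted, which leave out 1 chromosome without members, 8.3% held the motif and 0.457% held it more than once. The Cish promoter held 2 matches, the first starting at the start site itself and the second 11 bases after it. Of the 2 promoters of Bcl6, the downstream promoter held 3 matches, 168, 122 and 88 bases before its start site, and the other held 1. Of the 3 promoters of Igfals, 2 held 1 match each. The promoters of Ghr, Igf1, Stat5a, Stat5b, Cux2 and Onecut1 held none in this window. ATTGAT, a core of HNF6 sites found on either strand in 7.54% of the promoters counted, was in none of the members' promoters. A match is a description of the letters and no evidence of binding. The 3 stretches below run 5′ to 3′ from 250 bases before to 30 bases after the start site, with the matches to TTCNNNGAA in capitals. They lie at chr9:107296409-107296688 on the plus strand (Cish), chr16:23981254-23981533 on the minus strand (Bcl6) and chr17:24877981-24878260 on the plus strand (Igfals).
Cish: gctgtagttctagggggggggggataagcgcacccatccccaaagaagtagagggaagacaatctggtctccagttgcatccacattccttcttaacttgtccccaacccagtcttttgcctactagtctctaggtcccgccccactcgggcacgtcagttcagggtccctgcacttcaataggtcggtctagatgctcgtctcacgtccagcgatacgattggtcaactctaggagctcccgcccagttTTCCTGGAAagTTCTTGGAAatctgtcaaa
Bcl6: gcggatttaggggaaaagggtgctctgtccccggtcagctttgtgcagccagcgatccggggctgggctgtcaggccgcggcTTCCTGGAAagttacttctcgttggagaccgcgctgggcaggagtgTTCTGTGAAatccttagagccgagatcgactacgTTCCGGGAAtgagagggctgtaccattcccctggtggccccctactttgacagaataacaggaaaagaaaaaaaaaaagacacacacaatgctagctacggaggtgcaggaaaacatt
Igfals: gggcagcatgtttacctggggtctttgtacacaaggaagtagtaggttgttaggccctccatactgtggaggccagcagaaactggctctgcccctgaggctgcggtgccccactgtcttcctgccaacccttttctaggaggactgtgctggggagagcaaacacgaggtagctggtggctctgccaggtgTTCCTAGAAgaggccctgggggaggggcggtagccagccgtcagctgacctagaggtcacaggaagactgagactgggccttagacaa

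In the GENCODE M21 annotation of mm10, Ghr lies at chr15:3317760-3583492 on the minus strand and Cish at chr9:107296026-107302784 on the plus strand. Igf1 lies at chr10:87858265-87937042 (plus), Socs2 at chr10:95385362-95417180 (minus), Igfals at chr17:24865997-24882010 (plus) and Bcl6 at chr16:23965052-23988852 (minus). Cux2 lies at chr5:121856366-122050102 (minus) and Onecut1 at chr9:74861921-74891781 (plus). Stat5a at chr11:100859351-100885169 (plus) and Stat5b at chr11:100780731-100850724 (minus) are neighbours 8626 bases apart with similar sequences, and the sources used here do not say how reads common to both were split. Other annotated genes overlap Cish (Gm17040, Gm17041), Igf1 (Igf1os), Stat5a (Stat3), Bcl6 (Gm37419) and Cux2 (Gm3970, Gm15637) on the opposite strand, and Onecut1 (Gm20649) on its own strand, so counts of these genes are less certain. Counts of genes of different length are not compared with each other here.

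The filters left 29818 nuclei, which fell into 21 clusters. Of these nuclei, 18837 were called hepatocyte-like, from markers such as Alb and Apob, and they made up 11 clusters, and 9 of these drew over 90% of their nuclei from a single library. Clusters like endothelial cells held 5393 nuclei, those like stellate cells 1774, and those like cholangiocytes 509. Immune clusters resembled Kupffer cells or macrophages (1968), B or plasma cells (422), T or NK cells (559) and dendritic cells (87), and 118 nuclei resembled mesothelium. All names rest on marker genes. None of the 10 genes was used for clustering. Hepatocyte sums held 20946913, 19317542, 16832576 and 6788551 unique molecular identifiers (UMIs, 1 per captured transcript) in fasted 1, fasted 2, fed 1 and fed 2, the order used for all values below. Fed 2 stood apart by its low depth, since its hepatocytes had a median of 1279 UMIs and those of the other libraries 2556 to 3239. It also had 4.61% of its UMIs on Gm42418, a locus known to take up ribosomal RNA sequence, against 0.204% to 1.01%. Fed 1 stood apart by an acute-phase cluster, described below. Libraries shared 12 to 42 barcodes a pair, at most 0.431% of either library. Hepatocytes of every library carried Y-linked RNA (4 genes summed to 846, 462, 927 and 441 CPM, counts scaled to the library total), while Xist had 20, 17, 5 and 2 UMIs.

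The receptor's RNA was lower after fasting without overlap of the groups, and the 2 STAT5 genes differed little. Ghr stood at 7650 and 4615 CPM after fasting, against 9838 and 8221 CPM in fed hepatocytes. The groups did not overlap, but fasted 2 lay further below fasted 1 than fasted 1 lay below fed 2. The log2 fold change, fasted minus fed throughout, was -0.60 (SE 0.37, n = 2 libraries a group, edgeR quasi-likelihood test with Benjamini-Hochberg adjustment, adjusted p = 0.85). It was -0.31 without fasted 2 and -0.98 without fasted 1. Stat5b, the main STAT5 gene of liver, was at 204 and 221 CPM after fasting, against 165 and 224 CPM in fed hepatocytes, with a log2 fold change of 0.09 (SE 0.33). Stat5a was at 20 and 21.5 CPM against 21.7 and 22.8 CPM. Its groups did not overlap, yet the log2 difference of -0.14 (SE 0.35) was smaller than its error.

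The feedback inhibitors were both lower in fasted hepatocytes. Cish had 7.40 and 7.82 CPM after fasting (155 and 151 UMIs), against 60.2 and 22.2 CPM in fed libraries (1014 and 151 UMIs). The fasted libraries were alike and lay below both fed ones, which differed from each other. Its log2 fold change was -2.45 (SE 0.52), with an edgeR adjusted p of 0.49 and a DESeq2 adjusted p of 0.0013. Without fed 2 it was -2.95, and without fed 1 it was -1.65. Socs2 had 17.2 and 13.7 CPM after fasting, against 50.5 and 18.9 CPM in fed libraries. Fed 2 lay just above the fasted libraries and fed 1 far above them. The log2 fold change was -1.18 (SE 0.50, edgeR adjusted p = 0.74), or -1.68 without fed 2 and -0.40 without fed 1.

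The endocrine products showed no difference that held across libraries. Igf1, the hormone through which growth hormone acts on growth, stood at 1249 and 928 CPM after fasting, against 1577 and 345 CPM in fed hepatocytes. The fed libraries enclosed both fasted ones, and the log2 fold change of 0.18 (SE 0.64) became -0.51 without fed 2 and 1.54 without fed 1. Igfals, the acid-labile subunit that holds IGF1 in a long-lived complex in blood, had 12.1 and 13.4 CPM after fasting, against 13 and 10.0 CPM in fed libraries, with a log2 fold change of 0.12 (SE 0.39).

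Among the transcription factors, Bcl6 and Onecut1 were lower after fasting, and Cux2 was nearly missing from fed 1. Bcl6 had 240 and 261 CPM after fasting, against 340 and 695 CPM in fed hepatocytes. The fasted libraries were alike and fed 2 was the highest of the 4. Its log2 fold change was -1.11 (SE 0.44, edgeR adjusted p = 0.73), and -0.41 without fed 2. Onecut1 had 59.6 and 65.5 CPM after fasting, against 580 and 114 CPM in fed hepatocytes. Fed 1 stood far above the rest and fed 2 also lay above both fasted libraries. Its log2 fold change was -2.46 (SE 0.70), with an edgeR adjusted p of 0.58 and a DESeq2 adjusted p of 0.011. Without fed 2 it was -3.18, and without fed 1 it was -0.96.

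Cux2, a repressor that female liver expresses more than male liver, had 40.1 and 34.1 CPM after fasting, against 0.83 and 39.9 CPM in fed hepatocytes, or 840, 659, 14 and 271 UMIs. Fed 1 thus stood apart, and the other 3 libraries lay close together. The log2 fold change of 0.78 (SE 1.34) became 5.5 without fed 2 and -0.21 without fed 1. The lowest Cux2 and the highest Cish, Socs2, Ghr, Igf1 and Onecut1 were found in the same library, fed 1.

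**Figure D1:**
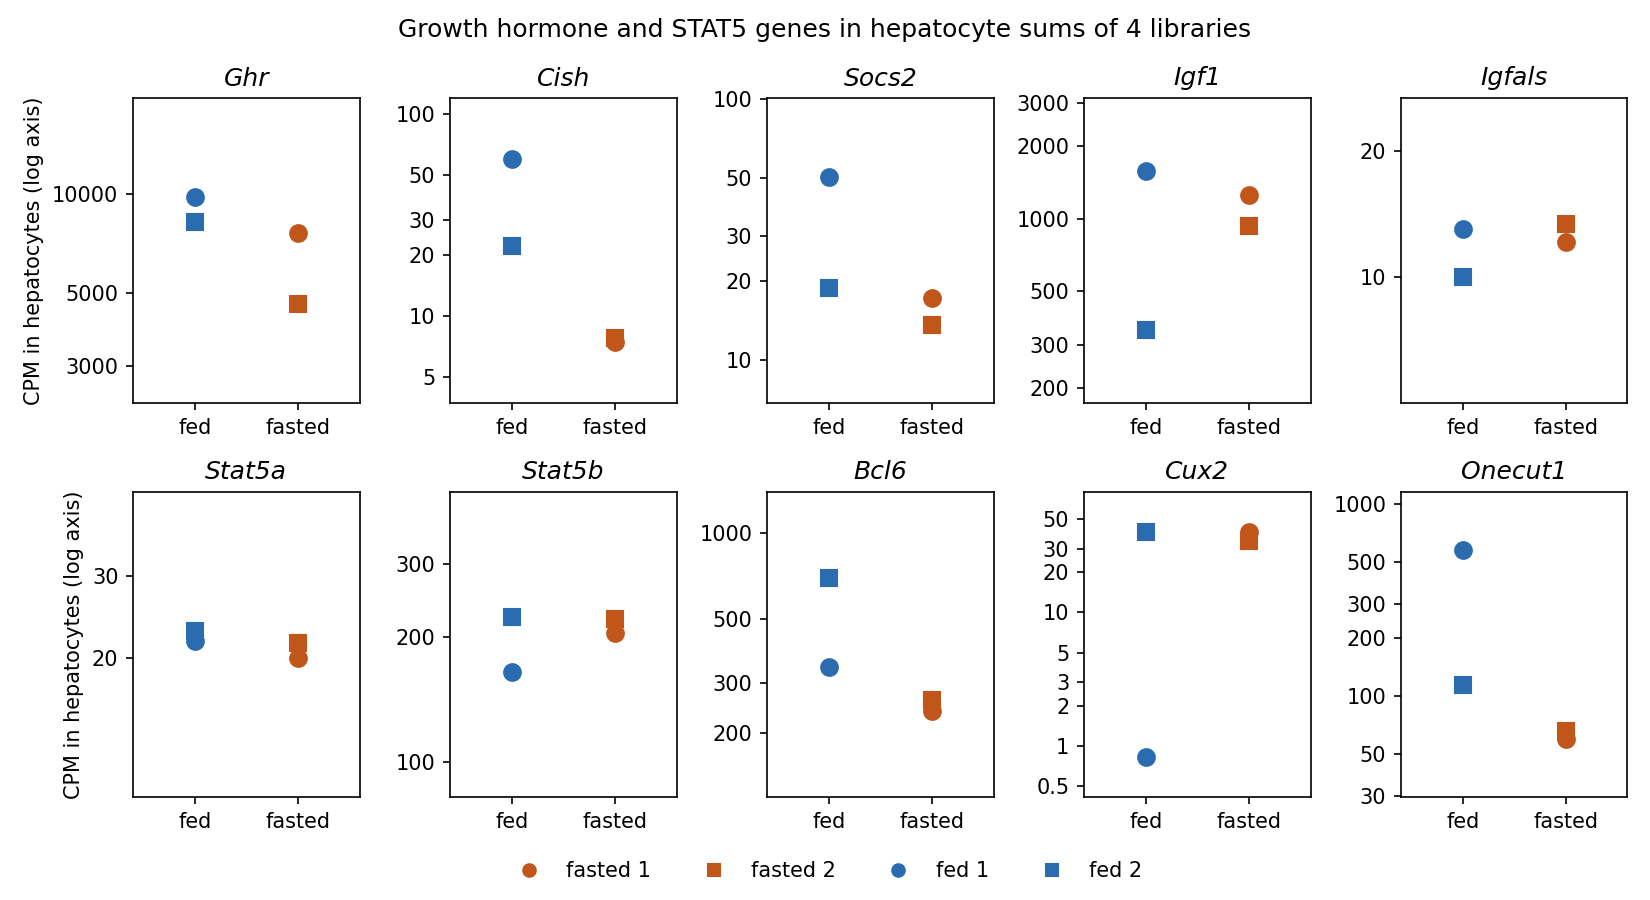
CPM in hepatocyte sums (log axes, a range of its own for each gene), with 1 point per library and fed and fasted libraries in separate columns. Cish, Bcl6 and Onecut1 show 2 close fasted points below 2 scattered fed points, and Cux2 shows fed 1 at 0.83 CPM far below the other 3 libraries.

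In all, 6 of the 10 genes were lower after fasting with no overlap (Ghr, Cish, Socs2, Stat5a, Bcl6 and Onecut1) and none was higher. Of the 13985 genes tested in hepatocytes, 15.6% were lower without overlap and 20.6% were higher. The median log2 fold change of the 10 genes was -0.37, against -0.01 over all genes tested. Other sums separated the same libraries in hepatocytes. Stellate markers summed to 19.7 and 11.3 CPM after fasting, against 45.1 and 59.4 CPM in fed libraries, and 14 immediate early genes to 115 and 68.3 CPM against 150 and 206 CPM. T or NK cell markers went the other way (24.4 and 15.1 CPM against 6.06 and 8.25 CPM), while endothelial markers overlapped (28.1 and 7.14 CPM against 22.2 and 60.1 CPM). Their part in the members' differences was not tested. None of the 10 passed the edgeR test, which called 1 gene, 0.00715% of those tested. At an unadjusted p under 0.05 stood 3 of the 10 (Cish, Bcl6 and Onecut1) and 6.81% of all genes. DESeq2 called 0.636% of genes lower, and Cish and Onecut1 were among them, so these 2 fell by that tool. With no low-count filter, edgeR called both as well (adjusted p = 2.1e-04 for Cish and 2.4e-06 for Onecut1). That setting called far more genes in total than the main test, as counted in the closing section.

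**Figure D2:**
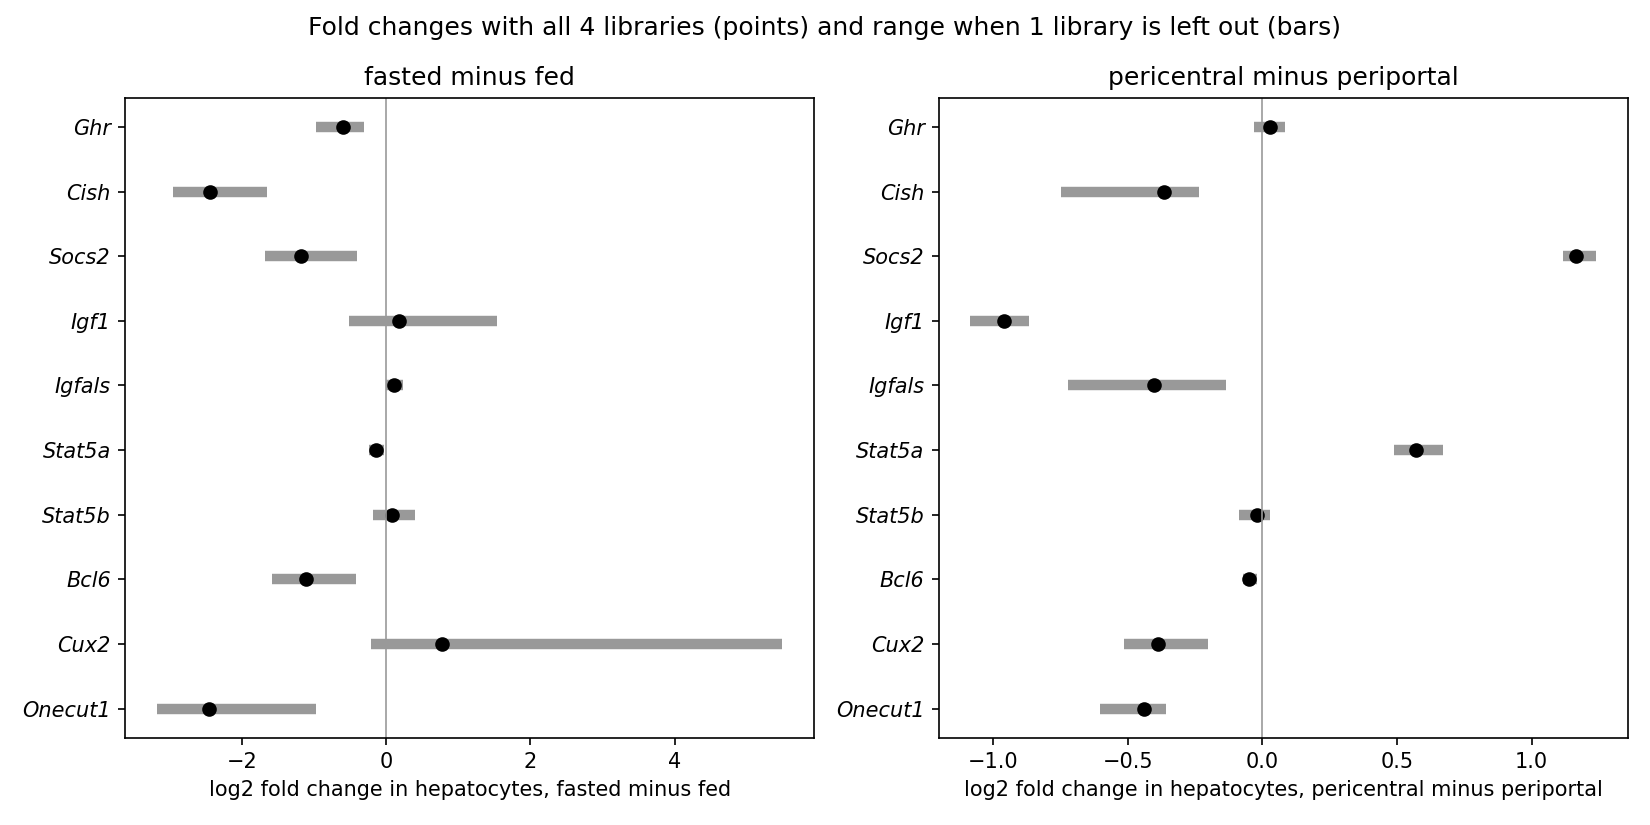
Log2 fold changes in hepatocytes, fasted minus fed (left) and pericentral minus periportal (right). Points use 4 libraries and bars span the values with 1 library left out. On the left the bars of Igf1, Stat5b and Cux2 cross 0, from -0.51 to 1.54 for Igf1. On the right those of Ghr and Stat5b cross 0, and the others stay clear of it, also for genes that were not called.

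Shares of nuclei with a UMI, which rest on the same counts as the CPM, gave the same order for Cish, Bcl6 and Onecut1 once depth was made equal. Each hepatocyte with at least 1500 UMIs was thinned to 1500 UMIs, which kept 4805, 4232, 4339 and 1571 nuclei. Cish was found in 1.02%, 1.58%, 9.03% and 3.50% of them, with exact 95% (Clopper-Pearson) intervals of 8.20% to 9.93% in fed 1 and 2.65% to 4.53% in fed 2, for counting error only. Unthinned shares, which move with depth, were 2.74%, 3.22%, 16.1% and 3.54% for Cish and 17.7%, 19.9%, 62.7% and 15.1% for Onecut1, so Onecut1 was lowest in fed 2 on that scale. Onecut1 was found in 8.35%, 8.67%, 49.6% and 13.8% of thinned hepatocytes, and Bcl6 in 27.6%, 29.6%, 36.0% and 59.7%. Cux2 was found in 5.72%, 4.44%, 0.115% and 4.46%. Unthinned shares were 46.0%, 49.6%, 52.0% and 54.4% for Bcl6 and 11.6%, 9.83%, 0.277% and 5.32% for Cux2. Ghr was found in 98.1% to 99.8% of hepatocytes in every library, so its share could not show a change. Free RNA adds to such shares. At 500 UMIs a nucleus, B or plasma cells, which should lack hepatocyte RNA, held Ghr in 84.2%, 71.9%, 88.7% and 91.7% of nuclei, against 94.4%, 83.9%, 95.3% and 94.8% of hepatocytes. At that depth Cish was in 0.556%, 0.525%, 3.24% and 1.05% of hepatocytes and in 1.53%, 1.04%, 0.943% and 0% of B or plasma cells. In fasted 1 and fasted 2 the hepatocyte share was thus at or below that of B or plasma cells. The latter rests on 3 of 196 and 1 of 96 nuclei (exact intervals 0.317% to 4.41% and 0.0264% to 5.67%). Summed Cish in B or plasma cells was 2.13 and 1.15 times its hepatocyte CPM there, on 3 and 2 UMIs. Whether it was free RNA or their own was not tested. The 0% rests on 24 nuclei, and its exact interval reaches 14.2%. B or plasma nuclei had a median of 712.5 to 1079 UMIs before thinning.

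Within fed 1, the 392 thinned hepatocytes with a Cish UMI held Socs2 in 9.69% (exact interval 6.95% to 13.1%) against 6.66% (5.90% to 7.49%) of those without, with overlapping intervals. They held Onecut1 in 56.4% (51.3% to 61.3%) against 48.9% (47.4% to 50.5%) and Igf1 in 83.9% (79.9% to 87.4%) against 77.0% (75.7% to 78.4%). Bcl6, at 37.5% against 35.9%, and Stat5b, at 21.2% against 20.8%, were found about as often with Cish as without. Nuclei of 1 library are no replicates, so these shares describe fed 1 only. The other libraries had 49 to 67 such nuclei and went both ways. Socs2 was in 10.2% against 2.92% in fasted 1, in 0% (exact interval up to 5.36%) against 1.85% in fasted 2 and in 1.82% against 3.17% in fed 2. Onecut1 was in 10.2% against 8.33%, 4.48% against 8.74% and 27.3% against 13.3% in the same order.

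Along the lobule, Socs2 and Stat5a were pericentral and Igf1 and Onecut1 were periportal. The lobule runs from the portal vein, where blood enters, to the central vein, and hepatocytes along it differ in their enzymes. Hepatocytes with at least 1500 UMIs were ordered by 10 pericentral landmark genes (such as Glul and Cyp2e1) and 11 periportal ones (such as Cyp2f2 and Hal). None of these is among the 10 genes, and the order used thinned counts. The nuclei were cut into 3 bins of equal size per library. Levels and tests used the unthinned counts of each bin, so depth was not made equal between bins. Bins at the ends were compared with library as a block, over 4 libraries. In this edgeR test 16.3% of 11470 genes were called, 7.88% pericentral and 8.4% periportal. Of the 10 genes, 2 were called pericentral and 2 periportal.

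Socs2 stood at 11.5, 8.73, 30 and 8.18 CPM in periportal and at 22.9, 19.0, 69.9 and 28.6 CPM in pericentral hepatocytes. It was higher near the central vein in 4 of 4 libraries and the middle bin lay between the ends in each. The log2 difference, pericentral minus periportal, was 1.16 (SE 0.12, edgeR adjusted p = 2.4e-06). Stat5a stood at 18.2, 18.4, 16.7 and 13 CPM in periportal and at 23.6, 25.8, 26.8 and 30.5 CPM in pericentral hepatocytes. It was also higher near the central vein in 4 of 4 libraries, with a log2 difference of 0.57 (SE 0.13, edgeR adjusted p = 0.0049).

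Igf1 ran the other way in 4 of 4 libraries. It stood at 1658, 1285, 1939 and 458 CPM in periportal and at 912, 559, 1273 and 203 CPM in pericentral hepatocytes, with the middle bin between them in each. The log2 difference was -0.96 (SE 0.09, edgeR adjusted p = 8.1e-06), so Igf1 kept this gradient in fed 2, where its level was lowest. Onecut1 stood at 72.9, 72.7, 614 and 127 CPM in periportal and at 44.2, 51.7, 553 and 88.4 CPM in pericentral hepatocytes. It was lower near the central vein in 4 of 4 libraries, least so in fed 1, with a log2 difference of -0.44 (SE 0.08, edgeR adjusted p = 0.0015). These 4 calls held under every alternative listed for this comparison, with any library left out and without the acute-phase cluster.

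**Figure D3:**
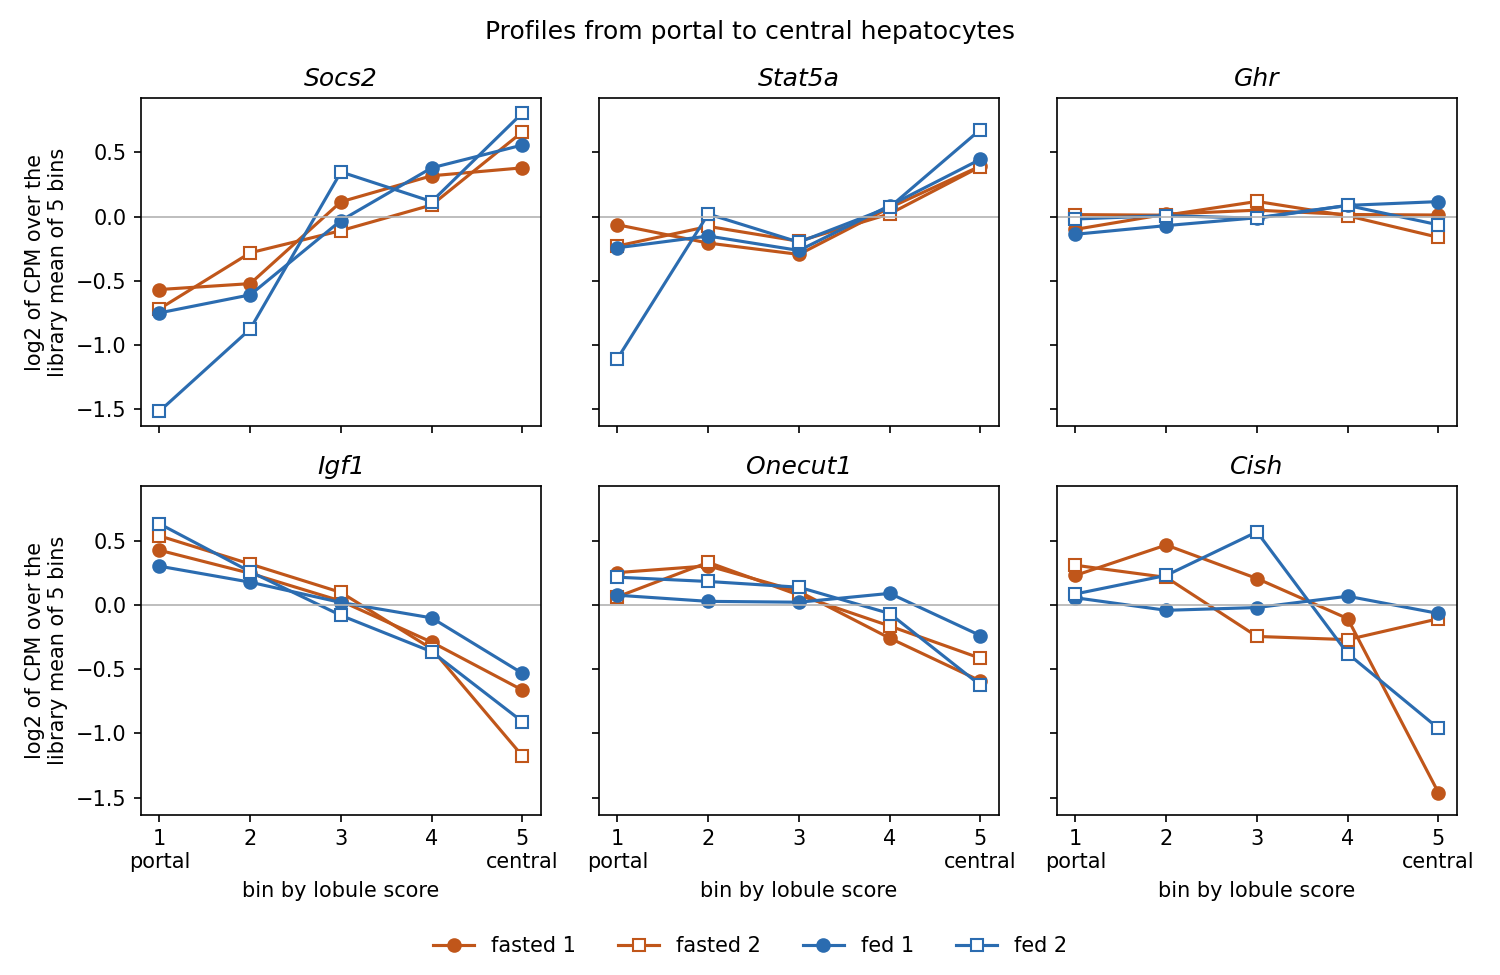
Lobule profiles of 6 genes over 5 equal bins of hepatocytes, from portal (1) to central (5), as log2 of the CPM in a bin over the mean of the 5 bins of that library, with 1 line per library. Socs2 is higher and Igf1 lower in the last bin than in the first in 4 of 4 libraries, Stat5a is highest in the last bin, Onecut1 is lowest there, and Ghr stays near 0.

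Ghr, Stat5b and Bcl6 showed no gradient beyond their errors, with log2 differences of 0.03 (SE 0.06), -0.02 (SE 0.06) and -0.05 (SE 0.06). Ghr, for example, stood at 7473, 4667, 9228 and 8646 CPM in periportal and at 7791, 4335, 10728 and 8726 CPM in pericentral hepatocytes. Cish, Cux2 and Igfals leaned to the portal side without passing the test. Cish was lower in pericentral hepatocytes of 4 of 4 libraries, at 8.21, 8.54, 59.7 and 29.3 CPM against 4.71, 6.69, 58.3 and 13 CPM, with a log2 difference of -0.37 (SE 0.16, edgeR adjusted p = 0.16). It passed without fed 1 (-0.75, adjusted p = 0.035) and without the acute-phase cluster of fed 1 (-0.57, adjusted p = 0.019). Cux2 differed by -0.39 (SE 0.13, edgeR adjusted p = 0.054) and passed in 4 of 10 alternatives, with adjusted p from 0.015 (scores not thinned, -0.45) to 0.042 (no low-count filter, -0.37). Igfals differed by -0.40 (SE 0.21, edgeR adjusted p = 0.24) and passed without fed 1 (-0.72, adjusted p = 0.02).

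Summed markers of some other cell types differed between the bins as well. Summed endothelial markers stood at 15.4, 3.45, 13.5 and 19.8 CPM in periportal and at 40.3, 12.3, 23.9 and 31.2 CPM in pericentral hepatocytes. Summed cholangiocyte markers stood at 136, 90.9, 126 and 151 CPM in periportal and at 118, 84.7, 95.4 and 125 CPM in pericentral ones. Summed T or NK cell markers stood at 4.72, 7.27, 5.92 and 2.73 CPM in periportal and at 53.9, 31.3, 7.10 and 9.10 CPM in pericentral hepatocytes. Whether this RNA came from other cells or from hepatocytes was not tested. Its part in the gradients of Socs2, Stat5a, Igf1 and Onecut1 was not tested either.

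The fasted minus fed difference was then compared between the ends of the lobule. The edgeR interaction test called 0.26% of 12315 genes and none of the 10. The nearest was Igfals, with an interaction of -1.07 (SE 0.34, edgeR adjusted p = 0.33). Its pericentral to periportal ratio was 0.50 and 0.67 in the fasted and 1.31 and 0.95 in the fed libraries, so the groups did not overlap, on 12 to 91 UMIs a bin. Onecut1 followed with -0.36 (SE 0.14, edgeR adjusted p = 0.54). The other 8 genes lay between -0.39 and 0.11, with SE of 0.10 to 0.33.

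Outside hepatocytes, most values were hard to tell from hepatocyte RNA carried by other nuclei. The genes Alb, Apoa1, Apob, Serpina1a, Ttr and Fgb, which define hepatocytes, together reached 0.35 to 0.92 of their hepatocyte CPM in the 5 other types that had 20 or more nuclei per library. Ghr reached 0.31 to 0.96 of its hepatocyte CPM in these types and exceeded it in none. In endothelial nuclei, for example, Ghr stood at 0.48, 0.47, 0.45 and 0.58 of its hepatocyte CPM, and the 6 defining genes at 0.50, 0.52, 0.35 and 0.60. Bcl6 lay below its hepatocyte CPM in all 5 types and 4 libraries, from 0.33 to 0.90. Igf1 lay at 0.72, 1.00, 0.79 and 1.40 of its hepatocyte CPM in Kupffer cells or macrophages, above the 6 defining genes there (0.61, 0.80, 0.38 and 0.84) in 4 of 4 libraries. The same held in endothelial nuclei, with Igf1 at 0.58, 0.56, 0.59 and 0.90. Types were defined from the same nuclei, so these levels are given without a test.

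For Stat5b, the CPM in Kupffer cells or macrophages was 0.99, 0.96, 0.95 and 0.86 of that in hepatocytes, and in endothelial nuclei 0.83, 1.03, 1.05 and 0.69. In stellate nuclei it was lower than in hepatocytes of every library, at 0.88, 0.74, 0.93 and 0.59. Stat5a lay below hepatocytes in endothelial, stellate and Kupffer cell or macrophage nuclei of every library, on 1 to 37 UMIs a sum. Igfals had at most 14 UMIs in any other type's sum.

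Socs2, Cux2 and Onecut1 had types above hepatocytes. Socs2 in cholangiocytes, the cells that line bile ducts, stood at 46.7, 63.2, 130 and 115 CPM, which was 2.71, 4.62, 2.57 and 6.07 times its hepatocyte CPM, on 20, 10, 25 and 2 UMIs. In stellate nuclei, the vitamin A storing cells of the sinusoid, Socs2 stood at 29.2, 41.4, 61.3 and 44.0 CPM, or 1.7, 3.03, 1.21 and 2.33 times hepatocytes. Both types thus exceeded hepatocytes in 4 of 4 libraries. Cux2 in endothelial nuclei stood at 56.2, 80.2, 41.8 and 109 CPM, above hepatocytes in 4 of 4 libraries. In fed 1, where hepatocytes had 14 Cux2 UMIs in 16832576, endothelial nuclei had 76 in 1818728. Onecut1, also a factor of bile duct development, stood at 177, 360, 504 and 401 CPM in cholangiocytes, above hepatocytes in 3 of 4 libraries, all but fed 1.

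**Figure D4:**
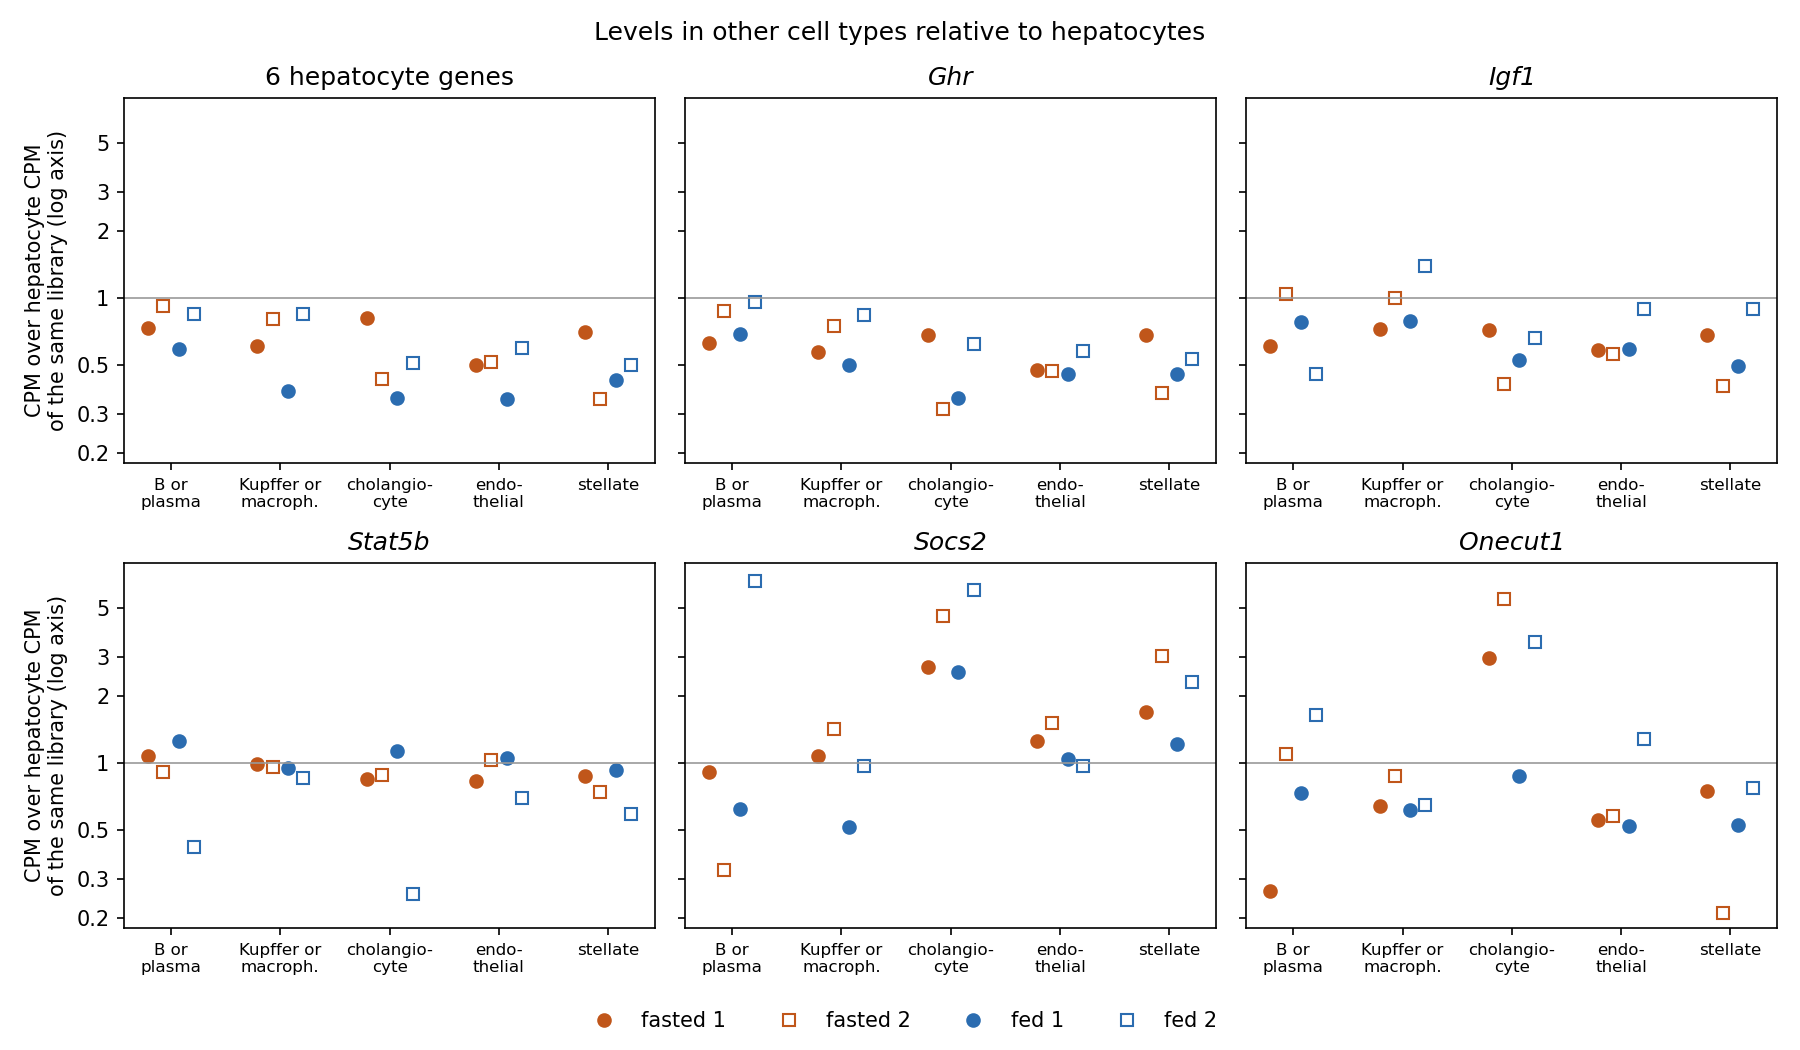
CPM in 5 cell types over the hepatocyte CPM of the same library (log axis), with 1 point per library, for the sum of 6 hepatocyte-defining genes and for 5 members. Ghr tracks the hepatocyte-defining genes below 1, Stat5b lies near 1 in most sums, and Socs2 in cholangiocytes and stellate nuclei lies above 1 in 4 of 4 libraries.

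Feeding was compared in 3 other types. In endothelial nuclei Onecut1 fell, and it was the only gene of the 10 called there, where edgeR called 0.118% of 10143 genes, 0.0789% lower. Fasted libraries lay below fed ones without overlap for 13.4% of genes there. It stood at 33.1 and 37.7 CPM after fasting (73 and 40 UMIs), against 301 and 146 CPM in fed endothelial nuclei (548 and 16 UMIs), and both fed libraries lay above both fasted ones. The log2 fold change was -2.74 (SE 0.43, edgeR adjusted p = 0.015). It was not called without fasted 1 (-2.63, adjusted p = 0.10), without fasted 2 (-2.81, adjusted p = 0.11) or without fed 1 (-2.11, adjusted p = 0.057). Beside it, Onecut1 in endothelial nuclei was 0.56, 0.58, 0.52 and 1.28 of its hepatocyte CPM. The 6 hepatocyte-defining genes were at 0.50, 0.52, 0.35 and 0.60 there, and the part of hepatocyte RNA was not tested. In hepatocytes the log2 fold change of Onecut1 was -2.46 (SE 0.70). An edgeR test of the difference between endothelial nuclei and hepatocytes gave -0.20 (SE 0.28) and did not call Onecut1.

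Onecut1 was also lower in Kupffer cells or macrophages and in stellate nuclei, where its call depended on the setting. Onecut1 stood at 38.3 and 57.1 CPM after fasting, against 356 and 73.1 CPM in fed Kupffer cells or macrophages (log2 -2.23, SE 0.64, edgeR adjusted p = 1.00). There edgeR called 0% of 8207 genes, with 228 (2.78%) at an unadjusted p under 0.05. DESeq2 called 11, which were 0.0731% higher and 0.0609% lower, and 12.7% of genes were lower without overlap. Onecut1 was called there with no low-count filter (edgeR adjusted p = 0.042), a setting that called more genes in total. With a library left out its log2 fold change ran from -2.81 to -0.73. In stellate nuclei Onecut1 stood at 44.7 and 13.8 CPM after fasting, against 305 and 88.0 CPM in fed libraries (log2 -2.70, SE 0.60, edgeR adjusted p = 0.26), where 0.053% of 7543 genes were called and 13.6% were lower without overlap. It was called with no low-count filter (edgeR adjusted p = 0.0069), where more genes were called in total as well. With a library left out its log2 fold change ran from -3.93 to -1.47. Ghr differed by -0.66 (SE 0.35), -0.63 (SE 0.47) and -0.33 (SE 0.68) in endothelial nuclei, Kupffer cells or macrophages, and stellate nuclei. Bcl6 differed by -0.62 (SE 0.45), -1.14 (SE 0.60) and -0.85 (SE 0.50) in the same order, and none of these values was called. Cish and Igfals in Kupffer cells or macrophages, and Igfals and Stat5a in stellate nuclei, had too few UMIs to be tested.

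The response of Cish differed between endothelial nuclei and hepatocytes in an edgeR test, but the call depended on single libraries. In endothelial nuclei Cish stood at 17.2 and 35.8 CPM after fasting, against 37.9 and 9.11 CPM in fed libraries. These sums held 38, 38, 69 and 1 UMIs, and the groups overlapped. Hepatocyte-defining genes reached 0.50, 0.52, 0.35 and 0.60 of their hepatocyte CPM there, and the part of hepatocyte RNA was not tested. The log2 fold change of Cish was -0.25 (SE 0.59) in endothelial nuclei against -2.45 (SE 0.52) in hepatocytes. The edgeR test of that difference, which called 1.14% of 13259 genes, gave 2.39 (SE 0.45, adjusted p = 5e-05). Leaving out fasted 2 gave 1.96 (edgeR adjusted p = 1) and leaving out fed 1 gave 3.02 (adjusted p = 0.40), so the call needed both libraries. In stellate nuclei Cish stood at 5.16 and 11.5 CPM after fasting, against 34.1 and 33.0 CPM in fed libraries, on 9, 5, 25 and 3 UMIs. Its log2 fold change was -2.17 (SE 0.80, edgeR adjusted p = 1.00).

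Fed 1 held a cluster led by acute-phase genes, 1707 of its 5058 hepatocytes (33.7%), with 17 nuclei from the other libraries together. Inside this cluster Saa1 stood at 1068 CPM against 52.5 CPM in the other fed 1 hepatocytes. The cluster was picked by Saa1 and Orm1 among its leading genes, so the difference in Saa1 was set by that choice. Socs3, the inhibitor of cytokine signalling through STAT3, stood at 33.4 against 7.91 CPM, and Stat3 at 620 against 298 CPM. Cish stood at 77.7 (exact Poisson interval 70.5 to 85.3) against 51.6 (47.5 to 56.0) CPM and Socs2 at 59.4 (53.1 to 66.1) against 46.1 (42.2 to 50.2) CPM. Bcl6 stood at 433 against 294 CPM and Stat5a at 30.1 against 17.6 CPM, so these 4 members were higher inside the cluster. Ghr stood at 6989 (6920 to 7059) against 11250 (11188 to 11312) CPM. Igf1 stood at 1345 against 1692 CPM and Onecut1 at 467 against 636 CPM, so Ghr, Igf1 and Onecut1 were lower. Igfals stood at 9.86 against 14.6 CPM, but its intervals overlapped. The interval inside the cluster reached 12.8 CPM and the one outside began at 12.4 CPM. Stat5b stood at 156 against 169 CPM, and Cux2 had 4 and 10 UMIs. The intervals cover counting error only, and with 1 library there is no test. Without this cluster the log2 fold change in hepatocytes was -2.31 for Cish, -1.11 for Socs2, -2.59 for Onecut1 and -0.72 for Ghr. The cluster held 436, 596 and 382 of the 1447, 1446 and 1446 fed 1 nuclei in the periportal, middle and pericentral bins.

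Other genes of the pathway were read from lists. None of them passed edgeR in hepatocytes. Of 16 further signalling genes, 15 were tested, and 3 were lower without overlap, a share near the 15.6% of all genes, among them the receptor's kinase Jak2 (log2 -0.39) and Stat3 (-0.37). The median of the list was -0.06. Of 11 genes for insulin-like growth factor receptors and binding proteins, 8 were tested, with 4 higher and 1 lower without overlap, against 20.6% and 15.6% of all genes. Igfbp1, a binding protein that insulin represses, stood at 45.7 and 37.8 CPM after fasting, against 20.8 and 29.3 CPM in fed hepatocytes (log2 0.69, SE 0.37). Igf2r (0.66) and Insr, the insulin receptor (0.29), were higher as well, and Igfbp7, on few UMIs, was lower (-1.39). Of 15 partner transcription factors, all tested, 4 were higher and 3 lower without overlap, shares near the 20.6% and 15.6% of all genes. Among them were Tox (1.43) and Trim24 (0.81), and on the lower side the glucocorticoid receptor Nr3c1 (-0.63), Onecut2 (-0.56) and Stat6 (-0.54).

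Genes with a known sex bias in liver, many of which growth hormone and STAT5 control, were read in 2 lists, neither with a gene called by edgeR. Of 17 genes known to be higher in males, 8 were lower without overlap (15.6% of all genes) and 2 were higher (20.6% of all genes), with a median log2 fold change of -1.24 (over all genes -0.01). Hsd3b5, a steroid-metabolising enzyme, stood at 9.83 and 1.66 CPM after fasting, against 225 and 78.4 CPM in fed hepatocytes (log2 -4.74, SE 0.94, edgeR adjusted p = 0.47, DESeq2 adjusted p = 3.7e-08). Selenbp2 stood at 70.7 and 21 CPM against 1112 and 226 CPM (log2 -3.88, DESeq2 adjusted p = 1.4e-05). Mup7, a major urinary protein, stood at 6.54 and 1.92 CPM against 22.1 and 37.6 CPM (log2 -2.88, DESeq2 adjusted p = 0.0013). DESeq2 called 4 genes of this list lower, against 0.636% of all genes, the fourth being the transporter Slco1a1 (log2 -1.64). Cyp4a12b (1.29) and Cyp2d9 (0.62) were the 2 on the higher side.

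Of 22 genes known to be higher in females, 12 were tested and 6 of these were higher without overlap (20.6% of all genes), with a median of 0.98. Members lay on both sides of 0, and Cyp2c40 (-3.99) and Cyp2c69 (-2.76), named after their values were seen, had 245 and 79 UMIs in fed 1 and at most 16 in each other library. Fmo2, a flavin monooxygenase, stood at 110 and 90.2 CPM after fasting, against 16.3 and 12.2 CPM in fed hepatocytes (log2 2.77, SE 0.33, edgeR adjusted p = 0.23, DESeq2 adjusted p = 7.8e-08). Nipal1 stood at 19.3 and 18 CPM against 2.44 and 2.21 CPM (log2 2.97, SE 0.43, edgeR adjusted p = 0.32, DESeq2 adjusted p = 1.8e-05). DESeq2 called these 2 genes higher, among 0.543% of all genes.

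Along the lobule, further pathway genes passed the edgeR test, which called 7.88% of all genes pericentral and 8.4% periportal. The prolactin receptor Prlr, a relative of Ghr that also signals to STAT5, was pericentral (log2 0.35, SE 0.09, edgeR adjusted p = 0.02), as was the insulin receptor substrate Irs1 (0.50, SE 0.08, adjusted p = 1.6e-04). Stat3 was periportal (-0.23, SE 0.06, adjusted p = 0.018). Of 6 tested genes for insulin-like growth factor receptors and binding proteins, Igf2r and Igfbp1 were pericentral. Of 15 partner factors, 4 were pericentral (Onecut2, Rora, Tox and Trim24) and 2 periportal (Hnf4a and Nr1h4). Of 17 male-biased genes, 7 were pericentral (Cyp2d9, Cyp4a12a, Cyp4a12b, Slco1a1, Elovl3, C6 and Susd4) and 4 periportal (Selenbp2, Egfr, Mup3 and Ugt2b38). Of 8 tested female-biased genes, 3 were pericentral (Fmo2, Acot4 and Atp6v0d2) and 2 periportal (Abcd2 and Nipal1).

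Over 12 points (3 lobule bins in 4 libraries, where bins of a library share its preparation and sequencing), the log2 CPM of the 10 genes was set against 7828 genes. The profile most like that of Onecut1 was that of Dhx33 (Pearson r = 0.99), followed by the complement gene C8b and Cyp7b1 (both 0.98). For Socs2 it was C6, another complement gene (0.97), for Igf1 it was 2610037D02Rik (0.98) with Apoa1 next (0.98), and for Ghr it was Fetub (0.97). For Stat5b the nearest were Dhdh (0.98) and Ppara (0.97), for Bcl6 Nlrp6 (0.99), for Cux2 Prox1os (0.98) and for Cish Ero1lb (0.98). Stat5a (Dmxl2, 0.93) and Igfals (Afg1l, 0.87) had less close neighbours. Among the 10 genes themselves, Cish and Onecut1 ran together (0.95), as did Stat5b and Cux2 (0.91), and Cux2 ran opposite to Onecut1 (-0.94) and Cish (-0.81). Much of each profile is the level of its 4 libraries, fed 1 above all, and the values are descriptions.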

How the data were processed

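The growth hormone members and gene lists were chosen with earlier results of these data known. The deposited matrices hold whole-number counts of UMIs, made by the authors with Cell Ranger 6.0 on mm10 per the submitters' processing notes, from 10x chemistry 3.1 libraries per the labels. The sources used here do not say whether introns were counted. Between 13.2% and 17.0% of stored entries were 0, which an unaltered count matrix would not store. A step before deposit may thus have lowered some counts, which would touch every level given here. Counting these entries as 1 was an alternative.

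A nucleus was kept with 500 or more genes detected and no more than 5% of UMIs mitochondrial. Scrublet's automatic threshold marked 1857, 1, 1 and 0 barcodes, so the highest scores were removed instead, 0.8% per 1000 barcodes (1108, 450, 758 and 233). Clustering used scanpy 1.11.5 and leidenalg 0.10.2 (2000 variable genes, 30 components, resolution 1). It left out the members and the lists of signalling, insulin-like growth factor, partner and sex-biased genes. Acute-phase, immediate early and Y-linked genes and Xist were not left out. T or NK, mesothelial and dendritic nuclei, under 20 in some library, were not tested. Counts were summed per library and type and fitted in edgeR 4.0.16 (quasi-likelihood F test, TMM, filterByExpr, R 4.3.3), adjusted by Benjamini-Hochberg at 0.05 over all genes tested. The SE of a log2 fold change is its size divided by the square root of F. DESeq2 1.42.0 was the other tool. Only the fit of fasted against fed hepatocytes was tried on simulated counts. These had the same spread for every gene, not the spread of these libraries, so that check does not bear on the calls given here.

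The lobule score was the mean z-score of 10 of 13 pericentral landmarks minus that of 11 of 12 periportal ones, those found in at least 2% of hepatocytes of every library, on counts thinned to 1500 UMIs. Scores from alternate landmarks correlated at 0.58 to 0.67. All 10 members are named. From each list, genes called by edgeR and up to 3 genes a direction were named, those with the largest change among genes whose groups did not overlap, and for the lobule the genes called. Single values of 3 list genes are not reported here. Scatter between libraries of a group exceeded counting noise (hepatocyte chi-square over its degrees of freedom: fasted 97.6, fed 145).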

Additional observations from a re-analysis of the deposited data

Results flagged for a closer look

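The difference in the response of Cish between endothelial nuclei and hepatocytes was marked because a test of the difference itself passed. The fasted minus fed log2 fold change was larger by 2.39 in endothelial nuclei than in hepatocytes (SE 0.45, edgeR adjusted p = 5e-05). Endothelial Cish rested on 38, 38, 69 and 1 UMIs in fasted 1, fasted 2, fed 1 and fed 2, and stood at 2.33, 4.58, 0.63 and 0.41 times its hepatocyte CPM. Both fasted libraries thus lay above hepatocytes and both fed ones below. Hepatocyte-defining genes stood at 0.50, 0.52, 0.35 and 0.60 of their hepatocyte CPM in endothelial nuclei, and the part of hepatocyte RNA was not tested. The call was lost without fasted 2 and without fed 1.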

How the results depend on the processing

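The 4 lobule calls (Socs2, Stat5a, Igf1 and Onecut1) kept direction and call under every alternative run for that comparison, while counts of calls between fasted and fed libraries moved with most settings. In hepatocytes 1 gene was called, against 275 with no low-count filter, 165 with DESeq2, 0 with stored zeros counted as 1, and 4 to 400 with a library left out. In endothelial nuclei 12 became 50 with no filter and 5 to 114 with a library left out. In Kupffer cells or macrophages 0 became 24 with no filter, 11 with DESeq2 and 2 to 60 with a library left out. In stellate nuclei 4 became 14 with no filter and 7 to 33 with a library left out. For the lobule by feeding, 32 became 109 with no filter, 12 with the ends cut from 5 bins, 69 with scores not thinned and 14 to 187 with a library left out. For the fasting effect in endothelial nuclei against hepatocytes, 151 became 15 to 306 with a library left out. With the replicate number as a block, the calls were 2 in hepatocytes, 203 in endothelial nuclei, 62 in Kupffer cells or macrophages and 14 in stellate nuclei. Under this block Onecut1 was called in Kupffer cells or macrophages (-2.19, edgeR adjusted p = 0.022) and in stellate nuclei (-2.70, adjusted p = 0.0078), and values of Igf1 (0.12) and Igfals (-0.16) in endothelial nuclei and Stat5a (-0.0020) in Kupffer cells or macrophages turned sign. Deviations of same-numbered libraries correlated at 0.42, 0.35, 0.45 and 0.24 in the 4 types, but with 2 pairs and no stated shared batch the numbers were not taken to pair the libraries. Stat5a in Kupffer cells or macrophages also turned with DESeq2 (-0.022), and the endothelial against hepatocyte difference of Stat5b turned with RLE scaling (0.066) and with no filter (0.045). None of the values that turned was called in the main test. With a library left out, the following log2 values also turned, given as lowest to highest. In hepatocytes these were Igf1 (-0.51 to 1.54), Stat5b (-0.18 to 0.40) and Cux2 (-0.21 to 5.5). In endothelial nuclei they were Cish (-0.80 to 1.43), Socs2 (-1.29 to 0.16), Igf1 (-0.55 to 0.95), Igfals (-0.48 to 0.91), Stat5a (-1.05 to 0.42), Bcl6 (-1.34 to 0.02) and Cux2 (-0.76 to 0.72). In Kupffer cells or macrophages they were Igf1 (-0.34 to 0.81) and Stat5a (-0.35 to 0.25), and in stellate nuclei Ghr (-1.37 to 0.30), Igf1 (-0.59 to 0.98) and Cux2 (-0.77 to 1.66). Along the lobule they were Ghr (-0.031 to 0.082) and Stat5b (-0.088 to 0.030), and for the lobule by feeding Cish (-0.53 to 0.62), Igf1 (-0.42 to 0.15) and Cux2 (-1.32 to 0.028). For endothelial nuclei against hepatocytes they were Ghr (-0.24 to 0.17), Igf1 (-0.61 to 0.064), Igfals (-0.80 to 0.84), Stat5a (-0.93 to 0.60), Stat5b (-0.10 to 0.45) and Onecut1 (-1.14 to 0.22). The cause was not tested. Of 851 alternatives for single genes, 758 kept direction and call, 5 lost the call, 44 gained one and 44 turned. A fit with 1 library in a group takes its spread from the other group. The alternative without the acute-phase cluster was chosen after seeing the data.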
